A study of Homo sapiens with 12 samples.

Results

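ABCB1 and 9 genes that lie beside it in band 7q21 of chromosome 7 were followed in RNA-seq libraries of ovarian cancer cell lines. The 10 genes, of 60669 gene IDs in the count table, are ABCB1, ABCB4, RUNDC3B, SLC25A40, DBF4, ADAM22, SRI, CROT, TMEM243 and DMTF1. They were chosen as the drug pump ABCB1 and the nearby genes that are often co-amplified with it, and the group was selected on its normalized levels and line-to-line ratios in these same libraries, so their levels and their ratios between lines are given as a description with no test. In the RefSeq annotation of GRCh38.p14 they span 1.07 Mb (chr7:87152453-88226976). All 10 passed the filter on low counts, and 7 had at least 10 counts in every library, the exceptions being ABCB1, ABCB4 and RUNDC3B.

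The study compared 3 sensitive lines with their 3 resistant partners, HeyA8 with HeyA8-MDR, SK-OV-3 with SK-OV-3-TR and OV2008 with C13, after quinacrine (QC), an antimalarial drug, or vehicle. Each line was grown to 70% confluency and kept in growth medium with 8 µM QC or buffer for 6 h, and polyA RNA was sequenced. HeyA8-MDR is described as carboplatin resistant, SK-OV-3-TR as taxol resistant and C13, which was derived from OV2008, as cisplatin resistant. Each resistant line is a single cell line, so its differences from its parent cannot be separated into those linked to resistance and those of that line. There was 1 library per line and treatment, 12 in all, so that each of the 4 groups held 3 lines. A level in bulk RNA also cannot tell fewer expressing cells from less RNA per cell.

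ABCB1 encodes P-glycoprotein, an ATP-driven pump of the plasma membrane that exports taxanes, anthracyclines, vinca alkaloids and many other hydrophobic compounds, while platinum drugs are poor substrates. Cells selected with a P-glycoprotein substrate often raise ABCB1 by gene amplification, by promoter activation or by rearrangements that place the gene behind another promoter. Where the locus is amplified, neighbouring genes such as SRI and ABCB4 can be carried along.

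ABCB1 is transcribed from the minus strand and has a pair of annotated starts 112411 bases apart. RUNDC3B, on the plus strand, starts between them, 27514 bases from the downstream start and 84897 bases from the upstream one. SLC25A40 and DBF4 are transcribed away from each other, with an interval of 132 bases between their starts. The 250 bases before each ABCB1 start and the interval shared by SLC25A40 and DBF4 are shown because the genes that start there had unequal ratios in the resistant lines. The sequences are from RefSeq, GRCh38.p14, 5′ to 3′ on the strand named, and capitals mark matches on either strand to the CCAAT box (CCAAT, or ATTGG on the other strand) or the GC box (GGGCGG, or CCGCCC), which did not overlap.
ABCB1 upstream start, minus strand, chr7:87713296-87713545: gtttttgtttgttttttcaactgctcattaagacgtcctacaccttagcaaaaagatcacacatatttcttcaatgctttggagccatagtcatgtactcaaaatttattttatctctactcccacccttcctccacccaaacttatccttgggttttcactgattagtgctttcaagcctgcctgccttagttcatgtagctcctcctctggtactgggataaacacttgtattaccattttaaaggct
ABCB1 downstream start, minus strand, chr7:87600885-87601134: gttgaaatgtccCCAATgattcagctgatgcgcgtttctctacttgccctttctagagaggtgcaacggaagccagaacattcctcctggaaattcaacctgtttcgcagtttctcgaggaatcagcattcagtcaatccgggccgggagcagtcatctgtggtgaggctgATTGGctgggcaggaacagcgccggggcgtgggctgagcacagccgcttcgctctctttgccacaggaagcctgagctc
SLC25A40 and DBF4 interval, plus strand, chr7:87876361-87876492: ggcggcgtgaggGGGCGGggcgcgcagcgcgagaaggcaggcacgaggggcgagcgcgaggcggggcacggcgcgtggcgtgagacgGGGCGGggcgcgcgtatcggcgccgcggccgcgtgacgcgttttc
The downstream ABCB1 window held 2 CCAAT matches, the upstream window held none of either box, and the shared interval held 2 GC boxes. Among the 250 bases before each of 35116 annotated start sites, 32.0% held CCAAT and 42.6% held GGGCGG. The TATA box (TATAAA) was also searched on both strands, matched in none of these sequences and was held by 10.7% of the windows. A start site was listed for 9 of the 10 genes, ABCB4 being without one. The count table gives 1 value per gene, so transcripts from the upstream and downstream ABCB1 starts were not told apart.

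The total count of a library lay between 17782556 and 30585059. KRT8 and KRT18, keratins of simple epithelia, were above 161 CPM in all 12 libraries. CDH1, EPCAM and KRT19 were at or near 0 in HeyA8-MDR and at most 2.92 CPM in HeyA8. PAX8, a factor of Müllerian epithelium, ranged from 7.56 CPM in OV2008 to 479.6 CPM in SK-OV-3-TR, and OV2008 and C13 stayed at or below 24.8 CPM. The other listed ovarian markers did not follow PAX8. MSLN was highest in C13 with vehicle, at 16.9 CPM, and at 0.591 CPM in SK-OV-3-TR with vehicle. MUC16 was highest in SK-OV-3 with vehicle, at 10.9 CPM, and WT1 was at most 4.79 CPM. The summed level of 6 markers of blood, endothelial and liver cells was at most 0.837 CPM in the SK-OV-3 family and 14.7 CPM in the OV2008 family. It reached 177.1 CPM in the HeyA8 family, where CDH5, vascular cadherin, made up nearly all of it, while HBB was at 0 in 12 of 12 libraries.

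The QC library of HeyA8 stood apart from the other QC libraries of sensitive lines. Of 283 genes at least 8-fold higher in HeyA8-MDR than in HeyA8 with vehicle, the median level in HeyA8 with QC lay 39.6% of the way from HeyA8 to HeyA8-MDR on the linear scale. For 215 genes at least 8-fold lower the median was 52.9%. The same medians were 0.0% and 11.2% for SK-OV-3 with QC on the way to SK-OV-3-TR, and 6.81% and 17.0% for OV2008 with QC on the way to C13. A QC response and a library holding RNA of both lines cannot be told apart from 1 library. The QC tests in sensitive lines are therefore also given without HeyA8, while the QC ratio of HeyA8-MDR to HeyA8 has no value without that library.

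ABCB1 (ENSG00000085563.15, minus strand, chr7:87503017-87713295) ranged from 4 to 11298 counts. Its level in CPM (counts scaled to library size by edgeR's TMM method) with vehicle was 4.12 in HeyA8 and 53.9 in HeyA8-MDR, from 93 and 1037 counts. In SK-OV-3 it was 0.167 CPM, from 4 counts, and in SK-OV-3-TR 333.7 CPM, from 11298 counts. OV2008 had 38.2 CPM and C13 had 0.599 CPM, from 682 and 18 counts. The resistant partner was thus the higher line in the HeyA8 and SK-OV-3 pairs and the lower line in the OV2008 pair, and the vehicle levels of the 3 resistant and the 3 sensitive lines overlapped.

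HeyA8-MDR with vehicle had 13.1 times the ABCB1 level of HeyA8 (95% counting interval 9.67 to 18.0), the 108th highest ratio among 18720 genes. In SK-OV-3-TR the ratio to SK-OV-3 was 1994 (552 to 16472), the 2nd highest of 18720, with an upper limit that rests on the 4 counts of SK-OV-3. C13 had 0.0157 times the level of OV2008 (0.00711 to 0.0301), the 21st lowest. The intervals cover counting error only and were computed on halved counts, since low counts in the table were even more often than odd and both mates of a fragment may have been counted. With 1 library per line these ratios have no replicate check.

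With QC the ABCB1 level was 26.5 CPM in HeyA8, 54.6 CPM in HeyA8-MDR, 0.454 CPM in SK-OV-3, 146.7 CPM in SK-OV-3-TR, 8.38 CPM in OV2008 and 0.452 CPM in C13. The order within each pair was the same as with vehicle, at smaller distances. The ratio of HeyA8-MDR to HeyA8 was 2.06 (1.79 to 2.37), that of SK-OV-3-TR to SK-OV-3 was 323.2 (138.2 to 996.9) and that of C13 to OV2008 was 0.0540 (0.0193 to 0.122).

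**Figure D1:**
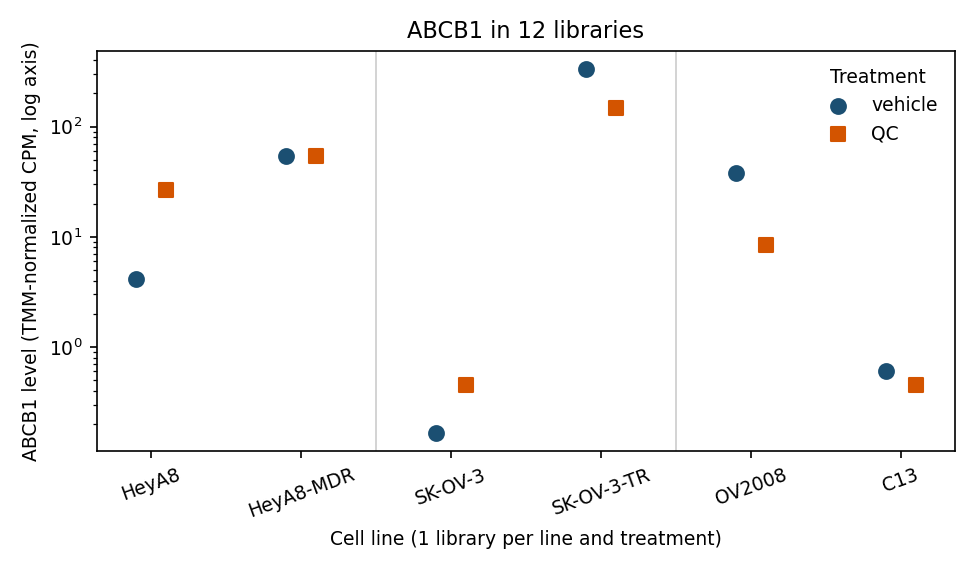
ABCB1 level in TMM-normalized CPM, on a log axis, in each of the 6 lines, with 1 library per point (circles, vehicle; squares, QC) and vertical lines between the 3 pairs. SK-OV-3-TR lies highest with both treatments, and SK-OV-3 and C13 lie below 1 CPM with both.

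Ordered by level, the libraries ran from SK-OV-3-TR with vehicle and with QC, through HeyA8-MDR, OV2008 with vehicle, HeyA8 with QC, OV2008 with QC and HeyA8 with vehicle, to C13 and SK-OV-3. Among neighbours in this order, HeyA8-MDR with QC and with vehicle could not be separated beyond counting error (ratio 1.01, 0.892 to 1.15). The 4 libraries of C13 and SK-OV-3, next to each other at the bottom of the order, also could not be separated step by step, on 4 to 18 counts. The other 7 steps in the order lay beyond counting error. In SK-OV-3-TR with vehicle, 1.91% of the 18720 genes had a higher CPM than ABCB1, against 20.7% in HeyA8-MDR, 28.6% in OV2008, 59.2% in HeyA8, 76.8% in C13 and 89.3% in SK-OV-3.

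Levels were compared between genes after division by exon length, in CPM per kb. In SK-OV-3-TR with vehicle ABCB1 was highest of the 10 genes, at 52.0 CPM per kb, ahead of SRI at 28.9 CPM per kb. In HeyA8-MDR with vehicle SRI, at 55.8 CPM per kb, TMEM243, at 33.0 CPM per kb, and DMTF1, at 14.99 CPM per kb, all lay above ABCB1, at 8.39 CPM per kb. In SK-OV-3 with vehicle ABCB1 had 0.0261 CPM per kb, against 12.8 CPM per kb for SRI.

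Of the 10 genes, 8 were at least 2-fold higher in HeyA8-MDR than in HeyA8 with vehicle, where 14.8% of all 18720 genes were. In SK-OV-3-TR 8 of 10 were at least 2-fold higher than in SK-OV-3, where 19.5% of all genes were. In C13 none was at least 2-fold higher than in OV2008, against 11.6% of all genes, and 4 were at least 2-fold lower, against 9.67%. None was at least 2-fold lower in HeyA8-MDR (14.6% of all genes) or SK-OV-3-TR (13.6%). The median log2 ratio of the 10 genes was 1.34 for SK-OV-3-TR, 1.74 for HeyA8-MDR and -0.94 for C13, while that of all genes was between 0.00 and 0.03. The choice of the 10 genes used these ratios, so nothing further is read from these shares.

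With QC in both lines of a pair, 2 of 10 genes were at least 2-fold higher in HeyA8-MDR (4.72% of all genes), and 7 were in SK-OV-3-TR (20.1%). In C13 0 were at least 2-fold higher (12.6%) and 5 at least 2-fold lower (8.26%). ABCB1 and TMEM243 passed 2-fold with both treatments in HeyA8-MDR, where 2.34% of all genes did. In SK-OV-3-TR 7 of the 8 did so (14.0% of all genes), SLC25A40 falling just short with QC. ABCB4 passed there on 14 and 2 counts with vehicle and on 5 and 0 counts with QC, not beyond counting error. In C13 ABCB1, RUNDC3B and ADAM22 were lower with both (4.43%). These counts of genes use log2 ratios with a prior count of 2. TMEM243 of SK-OV-3-TR with QC, at 2.005 without the prior count, therefore fell just short. The 2 genes of SK-OV-3-TR under 2-fold with vehicle were TMEM243, at 1.63, and DMTF1, at 1.17. Just inside the threshold with vehicle lay SLC25A40 of SK-OV-3-TR, at 2.17, and CROT of C13, at 0.462, and just outside it DBF4 of C13, at 0.508.

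**Figure D2:**
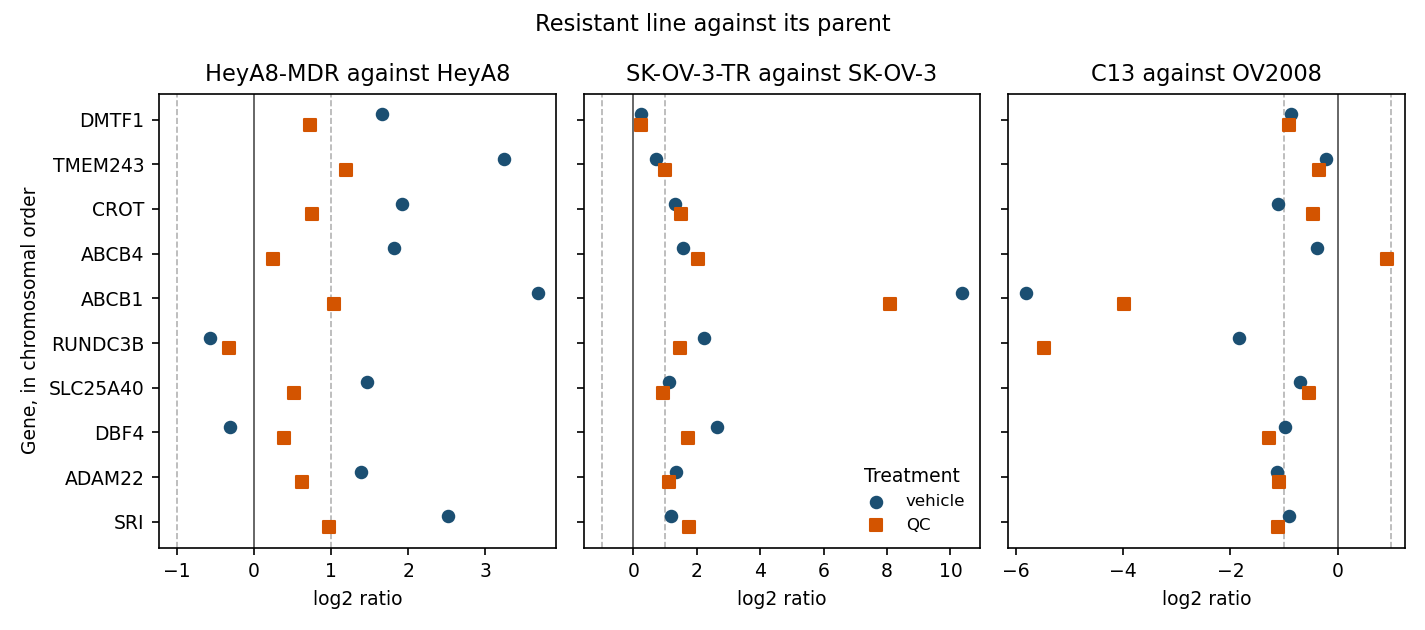
Log2 ratio of each resistant line to its parent for the 10 genes in chromosomal order, with vehicle (circles) and QC (squares), 1 library per line and treatment and dashed lines at 2-fold; the axis range differs between panels. With vehicle ABCB1 reaches 10.37 for the SK-OV-3 pair and -5.81 for the OV2008 pair, while its 9 neighbours lie between -1.84 and 3.25 with vehicle in all 3 pairs.

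ABCB4 (ENSG00000005471.18, chr7:87365896-87476027, minus strand) encodes the phosphatidylcholine floppase of the bile canaliculus and is the closest relative of ABCB1 in the block. It had 16 counts in HeyA8 with vehicle and 90 with QC, 52 in HeyA8-MDR with vehicle and 66 with QC, and at most 14 counts in each of the other 8 libraries. Its levels in the HeyA8 family were 0.709, 3.29, 2.701 and 3.91 CPM in that order. The ratio of HeyA8-MDR to HeyA8 was 3.81 with vehicle (1.67 to 9.74) and 1.19 with QC (0.735 to 1.90). In SK-OV-3-TR it had 14 counts with vehicle against 2 in SK-OV-3, a ratio of 4.94 with an interval from 0.635 to 222.8, so no difference was detectable at this depth. ABCB1 and ABCB4 transcripts shared 119 distinct 50-base words, 1.83% of those of ABCB1 and 1.504% of those of ABCB4.

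RUNDC3B (ENSG00000105784.15, chr7:87628398-87832296, plus strand) overlaps the ABCB1 gene on the opposite strand, without overlap of annotated exons. Whether the counting used strand is not given in the sources used here, so reads of one gene that fall in an exon of the other cannot be assigned with certainty. It had 1.20 CPM with vehicle and 1.06 CPM with QC in HeyA8, and 0.779 and 0.829 CPM in HeyA8-MDR. SK-OV-3 had 1.92 and 2.72 CPM, and SK-OV-3-TR had 9.27 and 7.63 CPM, the highest levels of this gene. OV2008 had 2.13 and 3.70 CPM, and C13 had 0.533 CPM with vehicle and 0 counts with QC. The gene that starts inside ABCB1 was thus higher in SK-OV-3-TR, lower in C13, and within counting error in HeyA8-MDR.

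The ratio of SK-OV-3-TR to SK-OV-3 for RUNDC3B was 4.82 with vehicle (3.10 to 7.83) and 2.80 with QC (1.81 to 4.44). That of HeyA8-MDR to HeyA8 was 0.651 with vehicle (0.229 to 1.71). In C13 it was 0.250 of the OV2008 level with vehicle (0.0948 to 0.599), and with QC at most 0.0305 of it, taking 3 counts in the C13 library as the limit for a count of 0.

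SRI (ENSG00000075142.14, chr7:88205115-88226976, minus strand) encodes sorcin, a calcium-binding protein. Its level was 41.2 CPM with vehicle and 126.1 CPM with QC in HeyA8, and 235.7 and 247.7 CPM in HeyA8-MDR. In SK-OV-3 it was 54.0 and 53.2 CPM, and in SK-OV-3-TR 122.0 and 178.6 CPM. In OV2008 it was 48.2 and 31.3 CPM, and in C13 25.7 and 14.4 CPM. HeyA8-MDR was the highest line and C13 the lowest, in the same order within each pair as ABCB1. The ratios with vehicle were 2.26 for SK-OV-3-TR (2.07 to 2.47), 5.72 for HeyA8-MDR (5.17 to 6.33) and 0.532 for C13 (0.463 to 0.612).

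TMEM243 (ENSG00000135185.12, chr7:87196160-87220587, minus strand), which encodes a small membrane protein, was the neighbour with the highest ratio in HeyA8-MDR. It had 11.3 CPM in HeyA8 and 108.0 CPM in HeyA8-MDR with vehicle, a ratio of 9.56 (7.95 to 11.6), and 43.2 and 98.6 CPM with QC, a ratio of 2.28 (2.05 to 2.54). In the other 4 lines it lay between 9.39 and 25.5 CPM with either treatment, with 1.63 times the SK-OV-3 level in SK-OV-3-TR (1.37 to 1.95) and 0.864 times the OV2008 level in C13 (0.662 to 1.13) with vehicle.

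DMTF1 (ENSG00000135164.18, chr7:87152453-87196325, plus strand), a transcription factor that activates the ARF tumour suppressor, ends on the opposite strand within the TMEM243 gene, and 178 exon bases are shared. It had 44.4 CPM in HeyA8 and 140.5 CPM in HeyA8-MDR with vehicle, a ratio of 3.17 (2.86 to 3.52). SK-OV-3 and SK-OV-3-TR had 63.5 and 74.4 CPM, a ratio of 1.17 (1.07 to 1.28), and OV2008 and C13 had 37.5 and 20.5 CPM, a ratio of 0.546 (0.466 to 0.639). Both genes at the centromeric end of the block were thus under 2-fold in SK-OV-3-TR with vehicle and over 3-fold in HeyA8-MDR.

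CROT (ENSG00000005469.12, chr7:87345664-87399794, plus strand) encodes peroxisomal carnitine O-octanoyltransferase, which prepares medium-chain acyl groups for export from the peroxisome. Its vehicle levels were 7.05 CPM in HeyA8 and 27.0 CPM in HeyA8-MDR, a ratio of 3.83 (2.97 to 4.99). They were 4.22 and 10.7 CPM in SK-OV-3 and SK-OV-3-TR, a ratio of 2.54 (1.85 to 3.54), and 28.8 and 13.3 CPM in OV2008 and C13, a ratio of 0.462 (0.382 to 0.557). With QC the C13 ratio was 0.730 (0.620 to 0.859).

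SLC25A40 (ENSG00000075303.13, chr7:87833568-87876360, minus strand) encodes a carrier that brings glutathione into mitochondria, and DBF4 (ENSG00000006634.8, chr7:87876493-87909553, plus strand) encodes the activating subunit of the CDC7 kinase that fires replication origins. In RefSeq the interval with 2 GC boxes lies between their starts, while in the GENCODE annotation, which differs here, they share 145 exon bases. SLC25A40 with vehicle was 2.78 times higher in HeyA8-MDR than in HeyA8 (2.15 to 3.63), from 7.58 and 21.1 CPM. DBF4 in the same libraries had 22.4 CPM in HeyA8 and 18.0 CPM in HeyA8-MDR, a ratio of 0.804 (0.659 to 0.979). In HeyA8-MDR the counting intervals of the 2 ratios did not overlap.

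In SK-OV-3-TR the order of the pair was the opposite. DBF4 had 5.40 CPM in SK-OV-3 and 34.3 CPM in SK-OV-3-TR, a ratio of 6.35 (4.90 to 8.35), the highest of the 9 neighbours there. SLC25A40 had 13.1 and 28.4 CPM, a ratio of 2.17 (1.81 to 2.62). In C13 SLC25A40 was 0.609 and DBF4 0.508 of the OV2008 level, with intervals of 0.459 to 0.809 and 0.427 to 0.603. With QC the DBF4 ratio was 1.31 in HeyA8-MDR (1.05 to 1.63), on the other side of 1 from its vehicle ratio, and 3.32 in SK-OV-3-TR (2.75 to 4.01).

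ADAM22 (ENSG00000008277.14, chr7:87934251-88202889, plus strand) encodes a catalytically inactive disintegrin that binds LGI1 at synapses. With vehicle it had 4.48 and 11.8 CPM in HeyA8 and HeyA8-MDR, 14.6 and 37.4 CPM in SK-OV-3 and SK-OV-3-TR, and 12.3 and 5.59 CPM in OV2008 and C13. The ratios were close in the first and second of these pairs, at 2.65 (1.88 to 3.76) and 2.57 (2.17 to 3.06), and the C13 ratio was 0.454 (0.338 to 0.608).

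The genes around the block were set beside it from lists of 19 genes on the centromeric and 25 on the telomeric side, of which 15 and 20 passed the filter. In HeyA8-MDR 11 of 20 telomeric genes were at least 2-fold higher than in HeyA8 with vehicle, and 3 were lower. On the centromeric side 1 of 15 was higher and 9 were lower, against 14.8% higher and 14.6% lower over all genes. In SK-OV-3-TR 6 of 15 centromeric and 3 of 20 telomeric genes were higher, against 19.5% over all genes, and 2 of 15 and 2 of 20 were lower, against 13.6%. In C13 4 of 15 and 1 of 20 were higher, against 11.6%, and 3 of 15 and 1 of 20 were lower, against 9.67%. With QC, none of the 20 telomeric genes was at least 2-fold higher in HeyA8-MDR than in HeyA8, near the share of all genes, 4.72%. That comparison uses the HeyA8 library described above.

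ELAPOR2, a centromeric gene less than 1 Mb from the upstream ABCB1 start, had 18.2 CPM in HeyA8 and 89.5 CPM in HeyA8-MDR with vehicle, a ratio of 4.91 (4.22 to 5.75). In SK-OV-3 and SK-OV-3-TR it had 5.52 and 36.5 CPM, a ratio of 6.62 (5.13 to 8.66). ELAPOR2, DMTF1-AS1 and TP53TG1, the 3 other annotated genes within 1 Mb of that start that passed the filter, were singled out after their values were seen. DMTF1-AS1 and TP53TG1 had log2 ratios of 3.88 and 3.75 in HeyA8-MDR and 2.77 and 1.97 in SK-OV-3-TR with vehicle. In C13 the 3 genes had log2 ratios of 0.69, -0.39 and -1.14. DMTF1-AS1 is antisense to DMTF1, and without strand the reads of the pair cannot be told apart. The next genes on the centromeric side, SEMA3D and SEMA3A, lay beyond 2 Mb and had ratios below 1 in HeyA8-MDR, at -3.23 and -1.24 on the log2 scale.

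Of the 35 flanking genes that passed the filter, 16 passed 2-fold in the same direction with both treatments in at least 1 pair, as did CD36, in SK-OV-3-TR, of the 9 that did not pass the filter. The share of all genes that pass in any of the 3 pairs was not computed, so nothing further is read from this count. In single pairs 14.0% of all genes were at least 2-fold higher with both treatments in SK-OV-3-TR and 2.34% in HeyA8-MDR, and 4.43% were lower in C13. The 6 of the 16 with the largest ratios included SEMA3E, a secreted semaphorin, with 0 counts in both SK-OV-3 libraries and 208 and 84 counts in SK-OV-3-TR, at least 49.0-fold higher with vehicle at a limit of 3 counts. PCLO, a presynaptic scaffold, was 8.16 times higher in SK-OV-3-TR (6.23 to 10.9) and 0.172 times the parent level in HeyA8-MDR (0.122 to 0.237). CYP51A1, the sterol demethylase of cholesterol synthesis, was 8.81 times higher in SK-OV-3-TR (5.06 to 16.7) and 4.29 times higher in HeyA8-MDR (2.92 to 6.47), where its ratio with QC was 1.37 (0.960 to 1.96). SAMD9, an interferon-inducible antiviral factor, had 0.0849 times the parent level in HeyA8-MDR (0.0618 to 0.114) and 0.175 times in SK-OV-3-TR (0.151 to 0.201). GSAP had 2 counts in SK-OV-3-TR against 59 in SK-OV-3, and STEAP2 had 0 counts in C13 against 15 in OV2008, all with vehicle. Ratios above and below 1 were thus found on both sides of ABCB1.

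**Figure D3:**
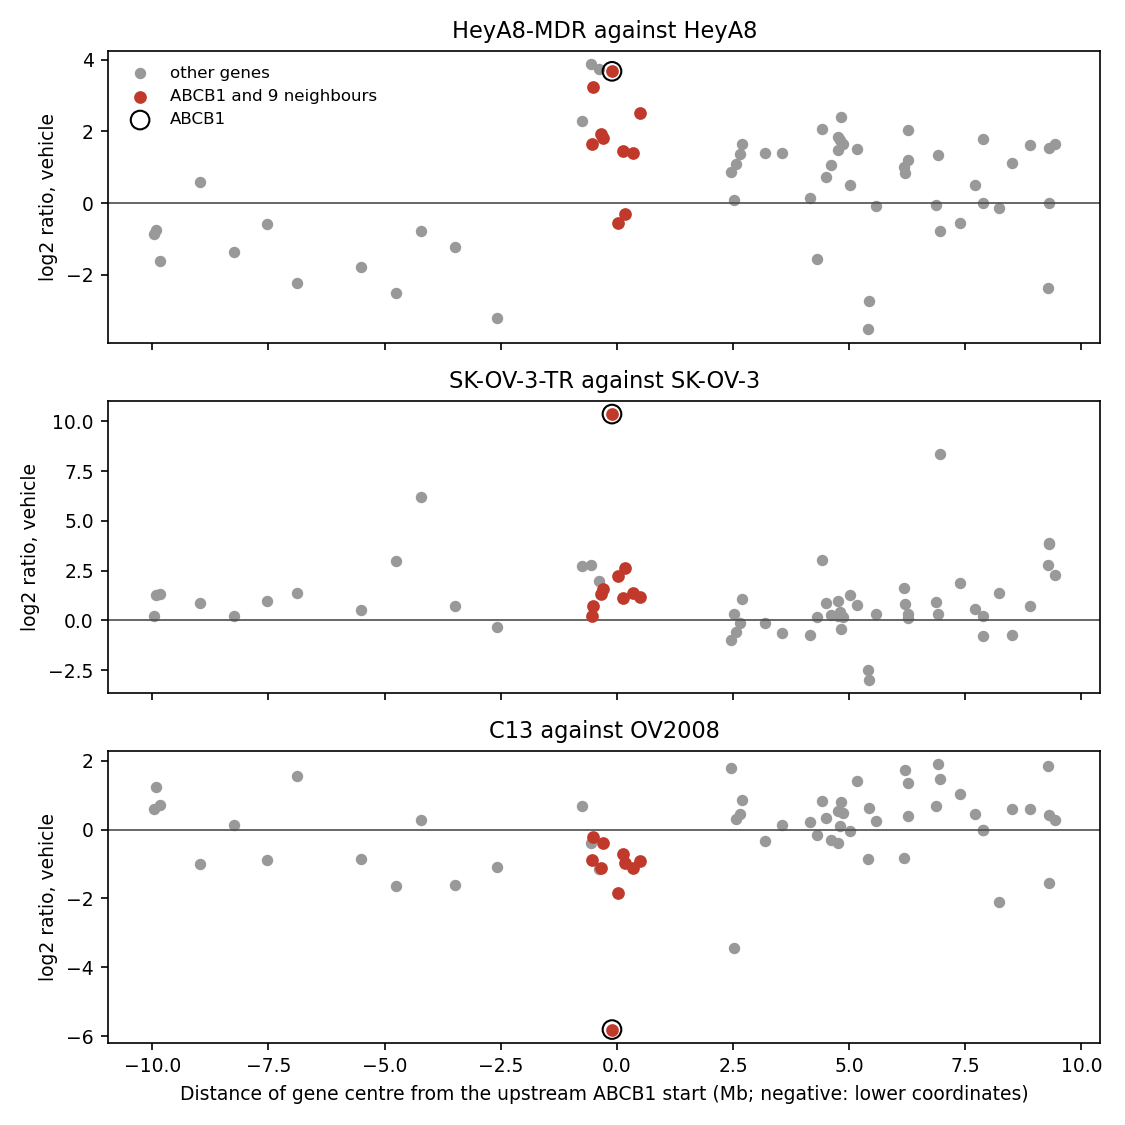
Log2 ratio of each resistant line to its parent with vehicle against the distance of each gene's centre from the upstream ABCB1 start, for genes within 10 Mb that passed the filter (red, the 10 genes; ringed, ABCB1; grey, others). In HeyA8-MDR genes on the telomeric side, to the right, are mostly above 0 and those beyond 2 Mb on the centromeric side mostly below it, while ABCB1 stands far above its neighbours in SK-OV-3-TR and far below them in C13.

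In bins along chromosome 7 that leave out the 10 genes, 12 of 17 genes at 1 to 5 Mb on the telomeric side were at least 2-fold higher in HeyA8-MDR with vehicle (70.6%), with a median log2 ratio of 1.39. At 5 to 10 Mb it was 10 of 23 (43.5%), at 10 to 20 Mb 42 of 136 (30.9%), and beyond 20 Mb 17 of 220 (7.73%). On the centromeric side none of the 12 genes from 1 to 10 Mb and 2 of 68 at 10 to 20 Mb (2.94%) were. Beyond 20 Mb on that side 38 of 321 were (11.8%), and over all genes the share was 14.8%. In SK-OV-3-TR with vehicle the shares on the telomeric side were 11.8% at 1 to 5 Mb, 39.1% at 5 to 10 Mb and 24.3% at 10 to 20 Mb, and 26.8% beyond. Its centromeric side had 2 of 4, 3 of 8 and 13 of 68 genes at least 2-fold higher in the same bins, and 27.4% beyond. In C13 with vehicle the telomeric shares were 5.88%, 30.4% and 9.56% in the same bins and 11.8% beyond, against 11.6% of all genes. The centromeric side of C13 had 0 of 4, 2 of 8 and 23 of 68 genes, and 8.41% beyond. Neither side of C13 fell steadily with distance. With vehicle the share was thus lower in each bin farther from ABCB1 on the telomeric side of HeyA8-MDR, with or without the bin of 17 genes, and out to 20 Mb on the centromeric side of SK-OV-3-TR, where the nearer bins held 12 genes in all. With QC the telomeric counts in HeyA8-MDR were 0 of 17, 1 of 23, 8 of 136 and 7 of 220, with no such order, against 4.72% of all genes. DNA copy number was not measured in these libraries, and its part in the ratios was not tested.

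None of the 10 genes was called for QC against vehicle by edgeR's quasi-likelihood test with the cell line as a block, in sensitive lines, in resistant lines or in the difference between them. At an adjusted p under 0.05, 0 of 10 were called in each contrast, and 0.0% of all 18720 genes were. At an unadjusted p under 0.05 it was again 0 of 10 in each, against 6.59% of all genes in sensitive lines, 6.03% in resistant lines and 1.16% for the difference. DESeq2 with the same terms called 0 of 10 at either threshold. Over all 18720 genes it gave 1156 in sensitive lines, 1093 in resistant lines and 167 for the difference at the unadjusted one. Without HeyA8 1 of 10, ABCB1, lay under an unadjusted 0.05 in sensitive lines, where 4.06% of all genes did, and its adjusted p was 1 by edgeR. The unadjusted count in sensitive lines was 2 of 10 without SK-OV-3 (DMTF1 and TMEM243), where 2012 of 20007 genes lay under 0.05. It was 3 of 10 without OV2008 (ABCB1, SLC25A40 and SRI), where 813 of 20213 genes did. The members named without SK-OV-3 and without OV2008 were higher with QC, while ABCB1 without HeyA8 was lower (log2 change -1.55). None of these members passed the adjusted threshold. These tests measure the spread between lines, since no line had a replicate.

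The ratio of QC to vehicle for ABCB1 lay on different sides of 1 in different lines, with 1 library per treatment. The HeyA8 ratio uses the QC library described above. The ABCB1 level with QC was 6.44 times that with vehicle in HeyA8 (4.74 to 8.94), 1.01 times in HeyA8-MDR (0.892 to 1.15) and 2.71 times in SK-OV-3 (0.444 to 28.5, on 10 and 4 counts). It was 0.440 times in SK-OV-3-TR (0.414 to 0.466), 0.219 times in OV2008 (0.173 to 0.276) and 0.755 times in C13 (0.221 to 2.37, on 12 and 18 counts). Ratios above 1 were thus seen in 3 of 6 lines, and the counting interval lay clear of 1 in HeyA8, SK-OV-3-TR and OV2008. The log2 change was 0.38 in sensitive lines (standard error 0.871, adjusted p = 0.962 from edgeR) and -0.56 in resistant lines (standard error 0.668, adjusted p = 0.911 from edgeR). Leaving out 1 resistant line moved the latter to -0.10 without SK-OV-3-TR and to -1.002 without HeyA8-MDR. The difference, resistant minus sensitive, was -0.94 (standard error 1.10, adjusted p = 0.9998 from edgeR). Without HeyA8 the sensitive change was -1.55, and without OV2008 it was 2.496 (adjusted p = 0.0682 from edgeR), so its direction rested on 1 line, and the difference was 0.99 without HeyA8 and -3.05 without OV2008.

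With QC 5 of the 10 genes (TMEM243, ABCB4, ABCB1, SLC25A40 and SRI) were at least 2-fold higher in HeyA8, where 10.2% of all genes were, none was at least 2-fold lower (6.95%), and the median log2 ratio of the 10 was 1.14. In HeyA8-MDR none was at least 2-fold higher (7.12% of all genes) or lower (9.49%). In SK-OV-3 ABCB1 and DBF4 were at least 2-fold higher (4.15% of all genes), and DBF4 had 129 counts with vehicle and 308 with QC, a ratio of 2.59 (1.93 to 3.52). None was at least 2-fold lower in SK-OV-3 (4.12%). None was at least 2-fold higher in SK-OV-3-TR (3.64%), in OV2008 (9.86%) or in C13 (8.24%). ABCB1 was the only one of the 10 at least 2-fold lower in SK-OV-3-TR (5.73% of all genes), ABCB1 and ABCB4 were in OV2008 (8.12%), ABCB4 on 2 and 0 counts, and RUNDC3B was in C13 (3.16%), on 16 and 0 counts.

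**Figure D4:**
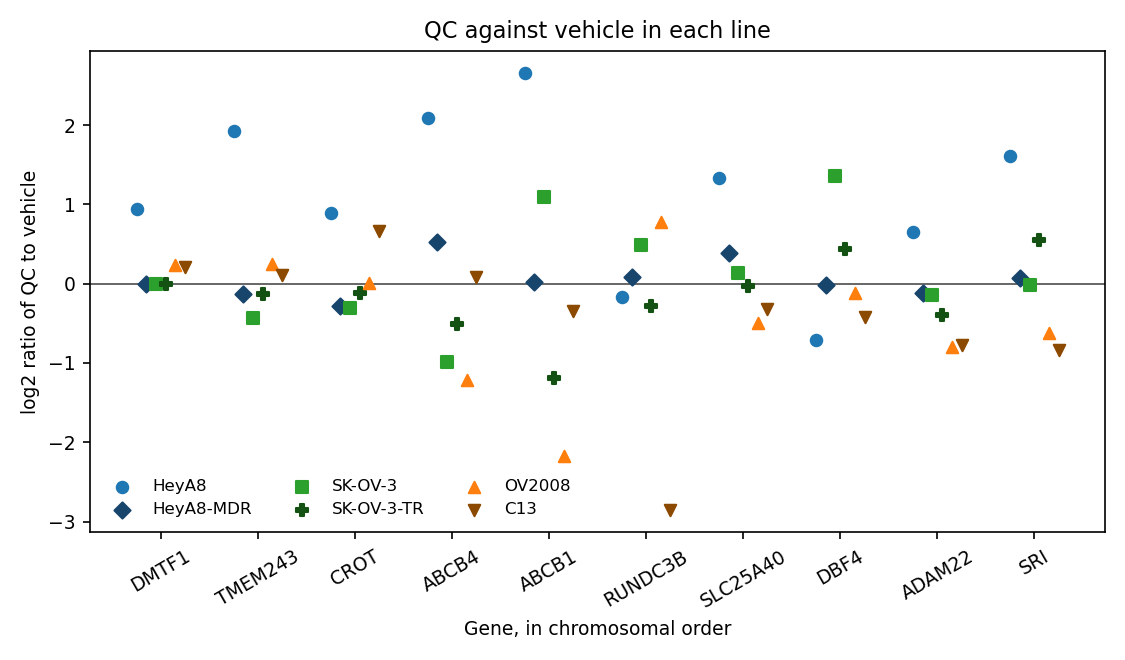
Log2 ratio of QC to vehicle for the 10 genes in chromosomal order, with 1 point per line (symbols as in the key) and 1 library per treatment. HeyA8 is the highest point for 8 of the 10 genes, and ABCB1 spans the range from -2.18 in OV2008 to 2.66 in HeyA8.

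In HeyA8 with QC 8 of the 10 genes lay between HeyA8 and HeyA8-MDR with vehicle, as did the medians over the genes that differed most between those lines. Those medians cover genes at least 8-fold apart, which of the 10 only ABCB1 and TMEM243 were. ABCB1 was 45.1% of the way from HeyA8 to HeyA8-MDR with vehicle, SRI 43.7%, DMTF1 42.3%, ADAM22 35.5%, TMEM243 33.0%, CROT 30.8%, RUNDC3B 32.7% and SLC25A40 86.5%. ABCB4, at 129.5%, and DBF4, at 199.0%, lay beyond HeyA8-MDR, the latter on a small difference between the lines. RUNDC3B did not differ between the lines beyond counting error (ratio 0.651, 0.229 to 1.71), so nothing is read from its position. EPCAM, at 2.92 CPM in HeyA8 and 0.0519 CPM in HeyA8-MDR with vehicle, was at 1.86 CPM in HeyA8 with QC. The part of that library in the members' sensitive-line changes was not tested beyond leaving HeyA8 out, which turned the changes of ABCB1, ABCB4, TMEM243, CROT, SLC25A40 and SRI from positive to negative.

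In OV2008 with QC ABCB1 lay 79.3% of the way to C13 with vehicle, against a median of 17.0% for the genes at least 8-fold lower there. ADAM22, SLC25A40 and SRI lay 78.3%, 75.4% and 74.8% of the way. Their C13 ratios with vehicle were 0.454, 0.609 and 0.532, so a small change moves them far on this scale and that median is no match. DBF4, with a C13 ratio of 0.508, lay 16.3% of the way, and ABCB4 rested on 2 and 0 counts. RUNDC3B, DMTF1 and TMEM243 lay on the other side of OV2008 from C13, while CROT with QC was at 1.01 times its vehicle level (0.853 to 1.19). SRI with QC was at 0.650 times the vehicle level in OV2008 (0.563 to 0.750), 0.561 times in C13 (0.469 to 0.669) and 1.46 times in SK-OV-3-TR (1.37 to 1.56). ADAM22 had ratios of 0.573 in OV2008 (0.424 to 0.771), 0.579 in C13 (0.392 to 0.846) and 0.761 in SK-OV-3-TR (0.657 to 0.879), and was above 1 in HeyA8 only, of 6 lines.

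Other drug pumps and listed regulators of ABCB1 were set beside the block. Of 12 pumps 10 passed the filter, and QC called 0 of 10 in sensitive and 0 of 10 in resistant lines at an adjusted p under 0.05 from edgeR. Without HeyA8, where 11 passed the filter, 0 of 11 were called in sensitive lines at that threshold. At an unadjusted p under 0.05 the count without HeyA8 was 0 of 11, against 4.06% of all genes. With all lines it was 2 of 10 (ABCA3 higher and ABCC5 lower), against 6.59% of all genes. Nothing is read from the change between these counts. In the pairs where ABCB1 was higher, ABCC2, the canalicular exporter of conjugated anions, had the largest ratio, 48.1 in SK-OV-3-TR with vehicle (28.3 to 89.5), from 1.13 and 54.4 CPM. ABCC2 was also 16.7 times higher in C13 (12.5 to 23.0), the line in which ABCB1 was lower. ABCA3, a lipid transporter of lamellar bodies, was 8.06 times higher in HeyA8-MDR with vehicle (5.92 to 11.2) and 1.49 times higher with QC (1.27 to 1.76). With vehicle ABCC3 was at 0.205 times the parent level in SK-OV-3-TR (0.189 to 0.223), and ABCG2, a pump of xenobiotics, at 0.238 times in HeyA8-MDR (0.0810 to 0.583) on 12 and 59 counts. In C13 ABCG2 was 4.79 times higher than in OV2008 (4.12 to 5.61), opposite to ABCB1.

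Of 22 listed regulators 21 passed the filter, and 0 of 21 were called with QC in sensitive or in resistant lines at an adjusted p under 0.05 from edgeR. At an unadjusted p under 0.05, 4 of 21 were higher with QC in each, against 3.55% and 3.43% of all genes. The 4 genes were NFYB, FOS, HIF1A and KAT2B in both groups of lines. Without HeyA8 0 of 21 were called in sensitive lines at an adjusted p under 0.05, and 3 of 21 (EGR1, FOS and HIF1A) were higher at an unadjusted one, against 2.08% of all genes. In SK-OV-3-TR with vehicle 2 of 21 regulators were at least 2-fold higher and 3 were lower, against 19.5% and 13.6% of all genes. In SK-OV-3-TR with vehicle JUN, a subunit of AP-1, was 7.58 times higher than in SK-OV-3 (6.97 to 8.24). FOXO1 was at 0.176 times the parent level (0.1502 to 0.206) and EGR1 at 0.245 times (0.194 to 0.307). NR1I3, the constitutive androstane receptor, had 18 counts in SK-OV-3-TR and 0 in SK-OV-3, at least 4.24-fold higher at a limit of 3 counts. In HeyA8-MDR with vehicle 0 of 21 regulators were at least 2-fold higher and 2 were lower, against 14.8% and 14.6% of all genes. In C13 2 of 21 were higher and 0 lower, against 11.6% and 9.67%.

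Over the 12 libraries the genes whose log2 CPM was most like that of ABCB1 were CRIM1 (Pearson r = 0.940), TAFAZZIN (0.936), PLAT (0.931), TRAPPC9 (0.922) and SLC39A9 (0.917). The libraries come in pairs of 1 line and families of 2 lines, so these are descriptions. Among the 9 neighbours DBF4 was most like ABCB1, at 0.744 and the 170th highest of the 18720 genes, followed by SRI at 0.739 and SLC25A40 at 0.729. CROT was least like it, at 0.441. CRIM1, a transmembrane protein that binds bone morphogenetic proteins, had 108.1 CPM in SK-OV-3 and 535.3 CPM in SK-OV-3-TR, and 269.9 CPM in OV2008 and 118.4 CPM in C13, all with vehicle. PLAT, tissue plasminogen activator, had 6.07 and 88.4 CPM in the former pair and 24.9 and 8.19 CPM in the latter.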

How the data were processed

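The authors prepared TruSeq RNA libraries and deposited a table of raw read counts per Ensembl gene ID. The study's methods name TopHat, hg19 and HTSeq, while the submitters' processing notes name STAR 2.7.3a, HTSeq 0.6.1p1 and GRCh38.p13, and the table names no build. Coordinates and start sites here are RefSeq's for GRCh38.p14. Strands and exon lengths are from GENCODE v44lift37.

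Of 60669 IDs, 58620 were paired with a symbol, and the rest held 0.132% of counts. Counts were filtered with edgeR 4.0.16 (filterByExpr, minimum count 10), scaled by TMM and fitted by quasi-likelihood over all 12 libraries, with cell line as block and a QC effect in each of sensitive and resistant lines (4 residual degrees of freedom). P-values were two-sided and Benjamini-Hochberg adjusted over 18720 genes. Within each line, deviations of the vehicle and QC libraries correlated (r 0.893 to 0.929), and the pairing comes from the labelled line. Log2 ratios used a prior count of 2. Counts of at most 10 were even in 64.8% to 69.9% of cases, against 49.9% to 50.9% of high counts, so 95% intervals (exact conditional binomial) used halved counts. The floor for a count of 0 was 3 counts.

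The 10 genes, the flanking, pump and regulator lists and the tests were chosen with earlier results of these data known. Of the flanking genes at least 2-fold apart with both treatments, the 6 with the largest ratios were to be named. The rule took 4 pumps and 4 regulators by ratio where ABCB1 was higher, and the 5 genes most like ABCB1. Markers comprised 6 epithelial, 4 ovarian and 7 other-cell genes, of which 6 matched. Alternatives were DESeq2 1.42.0, other scalings, filters and prior counts, no block, and leaving out each line.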

Additional observations from a re-analysis of the deposited data

How the results depend on the processing

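No gene of the 10 was called for QC at an adjusted p under 0.05 in sensitive lines, resistant lines or their difference under any alternative run (0 in each). At an unadjusted p under 0.05 the count of the 10 was 0 in the reported fit. It was 1, in each contrast, without a filter on low counts. That fit gave 1918 of 39590 genes in sensitive lines, 1637 in resistant lines and 501 for the difference. Leaving out 1 line gave 0 to 3 of the 10 in sensitive lines, 0 in resistant lines and 0 to 1 for the difference. Over all genes it gave 808 to 2012, 416 to 1376 and 187 to 540, of 19307 to 20213 tested. The whole table did change: the count of genes called in sensitive lines was 0 in the reported fit, 31 with DESeq2, 195 without a filter on low counts and 0 to 18 when 1 line was left out. In resistant lines it was 0, 0, 35 and 0, and for the difference 0, 1, 5 and 0. The count of genes at least 2-fold higher in HeyA8-MDR was 2 in place of 8 with the QC libraries. With at least 10 counts required in every library, which removes ABCB1, ABCB4 and RUNDC3B, 5 genes were higher in SK-OV-3-TR and 2 lower in C13.

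Directions of several uncalled changes depended on single lines, while that of ABCB1 in resistant lines stayed negative. Leaving out each line in turn, the log2 change in sensitive lines ran from -1.55 to 2.496 for ABCB1, -4.26 to 1.47 for ABCB4, -0.10 to 1.10 for TMEM243, -0.14 to 0.43 for CROT, -0.18 to 0.74 for SLC25A40, -0.43 to 0.60 for DBF4, -0.47 to 0.25 for ADAM22 and -0.32 to 0.80 for SRI. In resistant lines it ran from -0.013 to 0.12 for DMTF1, -0.15 to 0.0046 for TMEM243, -0.21 to 0.26 for CROT, -0.38 to 0.46 for ABCB4, -0.19 to 0.17 for SLC25A40, -0.20 to 0.20 for DBF4, -0.36 to 0.30 for SRI and -1.002 to -0.10 for ABCB1. The ABCB1 difference ran from -3.05 to 0.99. With DESeq2 ABCB4 was -0.63 in sensitive lines. In resistant lines SLC25A40 was -0.019 and DBF4 -0.029 with library size only, and DBF4 -0.012 without a filter. Without the cell line block, which ignores the pairing, 0 of 10 genes were called, and the change was -0.26 for ABCB1 and -0.068 for DBF4 in sensitive lines and 0.20 for SRI in resistant lines. The causes were not tested. The pump and regulator lists without HeyA8 were an alternative chosen after seeing the data, and 0 genes of either were called at an adjusted p under 0.05.

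There was 1 library per line and treatment, and intervals cover counting error only. ABCB1 in SK-OV-3 and C13, ABCB4 outside the HeyA8 family and RUNDC3B in HeyA8-MDR and C13 rest on 18 counts or fewer per library. Another scaling or a prior count of 0.5 left the counts of genes past 2-fold within 1.5 times. The counting's use of strand is not given in the sources used here, which name 2 different builds.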
